A study of Mus musculus with 16 samples.

Results

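Mouse olfactory receptors of class I, the receptor class shared with fish, lie in a single tandem array on chromosome 7. The receptors described here are the measured features placed on chromosome 7 whose symbol runs from Olfr543 to Olfr692 or from Olfr64 to Olfr69, without the suffix that marks a pseudogene. This gave 118 receptors among 19572 tested features, which held 1080 intact olfactory receptors in all. Olfr78, which belongs to the same array, was not analysed here. Messenger RNA was measured on 16 Clariom S arrays, a 1-colour microarray with 1 summarized value per gene, and all values below are log2 signals. The 24 mice were C57BL/6 animals of both sexes aged 7 to 12 weeks that carried S100a5-tauGFP, a green fluorescent reporter driven by S100a5, a gene that olfactory sensory neurons transcribe more when active. Each was kept alone under clean airflow for 40 h, and from 26 h on received either filtered air (vehicle) or a mixture of undecanal, a fatty aldehyde, and bourgeonal, a floral aromatic aldehyde, for 10 s every 20 min. Olfactory mucosa from pools of 3 mice was dissociated and sorted by fluorescence, and both fractions of each of 8 pools were measured. The 4 groups of 4 arrays are thus vehicle titled GFP−, vehicle titled GFP+, odor titled GFP− and odor titled GFP+.

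Each olfactory sensory neuron transcribes 1 allele of 1 olfactory receptor gene, so the signal of a receptor in a sorted fraction reflects how many neurons chose it and how much mRNA each of them holds. Fewer neurons of a type and less RNA per neuron cannot be told apart in these bulk samples. Class I receptors are chosen by neurons of the dorsal zone of the epithelium, an enhancer inside the array called the J element is needed for the transcription of many of them, and several are known to bind carboxylic acids and other water-soluble odorants. Their coding exon is single, and receptors of the array are grouped by protein similarity into MOR families.

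The sample titles and the cell type characteristic give opposite GFP status on all 16 arrays. The titles are kept here. A fraction difference is the titled GFP− signal less the titled GFP+ signal of the same comparison. S100a5 itself went against the titles. It was higher in the titled GFP− fraction in all 8 pools, by 1.00 ± 0.20 (SE, adjusted p = 0.0019) in vehicle and 1.31 ± 0.20 (adjusted p = 1.6e-04) in odor pools. Arrays of the same group correlated with each other at 0.979 to 0.995. Other cells moved with the fractions. All 9 neutrophil markers and all 11 other leukocyte markers measured were lower with either treatment in the titled GFP− fraction. So were all 6 markers of microvillar cells and ionocytes, all 4 cell cycle and all 3 erythroid markers. Of those 6 markers, 2 with vehicle and 1 with odor were below background in both fractions. Of 7 sustentacular cell markers 4 were lower with vehicle and 5 with odor, at summed levels of 11.4 to 13.8 against 13.9 to 15.1. Markers of ciliated respiratory cells went the other way. With each treatment 2 of the 3 measured were higher in the titled GFP− fraction, at median differences of 0.87 (vehicle) and 0.83 (odor) over the 3. The log2 of the summed neutrophil signal was 8.63 to 9.80 on titled GFP− and 18.4 to 19.7 on titled GFP+ arrays. For other leukocytes it was 8.91 to 10.2 against 14.7 to 17.0. Of 8 immature neuron markers 5 were lower in both treatments, at summed levels of 17.57 to 17.84 against 17.74 to 18.03, and of 8 mature neuron markers 1 in vehicle and 2 in odor pools were higher, at 20.8 to 21.0 against 20.7 to 20.8. All 8 mature neuron markers were above background on every array. The part of these differences in the receptor values was not tested.

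Signals of the class I receptors spanned the scale from background to high. The background of an array was the 95th percentile of its 23 background probe sets, 6.87 to 7.41 over the arrays. By this level 31 receptors were above background on all 16 arrays, 68 on some and 19 on none. The receptors above background numbered 41 to 88 per array. The median of the 118 receptors was 7.76 to 8.86 in vehicle titled GFP−, 7.29 to 9.11 in vehicle titled GFP+, 8.25 to 8.84 in odor titled GFP− and 6.47 to 8.85 in odor titled GFP+ arrays. The lowest of these 16 medians, 6.47, belonged to the odor titled GFP+ array of replicate 1, which also had the fewest receptors above background, 41. The next lowest was the vehicle titled GFP+ array of replicate 1, at 7.29 with 62 receptors. The titled GFP+ arrays of replicate 4 had the most, 88 with vehicle and 86 with odor.

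Nqo1 and Acsm4, enzyme genes that mark dorsal zone neurons, were extreme on some of the same arrays. Nqo1 stood at 14.3 on the odor titled GFP+ array of replicate 1 and at 15.3 to 16.5 on the other 15. Acsm4 stood at 12.3 there and at 13.35 to 14.5 elsewhere. Both were highest on the vehicle titled GFP+ array of replicate 4, at 16.5 and 14.5, where the median class I receptor was also highest. Medians of all 962 other receptors ran from 8.14, on the same odor titled GFP+ array of replicate 1, to 9.51. The plot of receptor signals per array shows these values side by side. Robo2, the third dorsal zone marker listed, is given by group only. Its means were 12.20 in vehicle titled GFP−, 12.48 in vehicle titled GFP+, 12.25 in odor titled GFP− and 12.70 in odor titled GFP+ arrays. Between odor and vehicle in the titled GFP+ fraction Robo2 differed by 0.22, against −0.37 for Nqo1 and −0.37 for Acsm4, and none of the 3 was called.

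**Figure D1:**
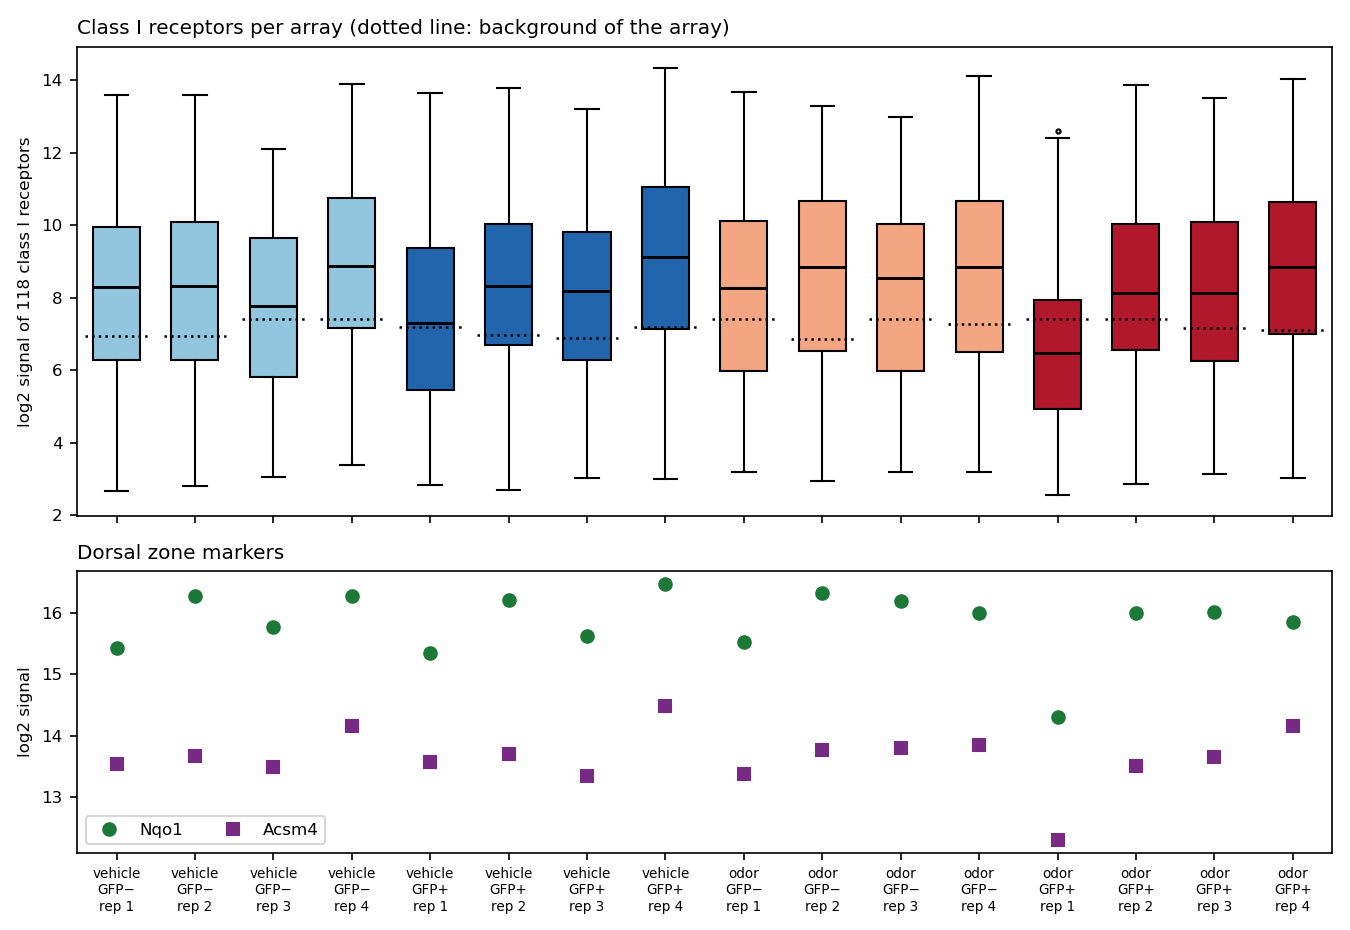
Log2 signals of the 118 class I receptors on each of the 16 arrays (boxes are quartiles with the median as a line, whiskers reach 1.5 times the box height, dotted lines are the array background) and, below, of the dorsal zone markers Nqo1 and Acsm4. The odor titled GFP+ array of replicate 1 has the lowest receptor median, 6.47, and the lowest Nqo1 and Acsm4 values.

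In vehicle pools, which had smelled only filtered air, 43 of the 118 receptors differed between the fractions. In the titled GFP− fraction 23 were higher, beside 7.05% of all tested features that were higher, and 20 were lower, beside 9.82% of all. These are 19.5% and 16.9% of the class I receptors. Leaving out 1 vehicle pool gave 16 higher and 18 lower (without replicate 1), 12 and 17 (replicate 2), 16 and 16 (replicate 3) or 15 and 17 (replicate 4), and the test without moderation gave 10 and 15. Of all features, 2138 to 2662 were called in either direction with 1 vehicle pool left out and 2419 without moderation, against 3302. In odor pools 45 differed, 31 of them higher (12.2% of all features) and 14 lower (9.98% of all), which are 26.3% and 11.9% of the receptors. With the pool of mice as a block, which pairs the fractions of the same animals, the counts were 36 higher and 23 lower in vehicle pools and 48 higher and 20 lower in odor pools. Of all features, 3708 and 4948 were called with that block. Without odor replicate 1, whose titled GFP+ array had the lowest receptor median, 23 were higher and 16 lower in odor pools, where 2689 of all features were called. Of the 962 other receptors, 35.0% were higher and 21.0% lower in vehicle pools, and of the 112 other receptors of chromosome 7, 42.0% and 12.5%. In odor pools these shares were 39.0% and 19.8%, and 43.8% and 12.5%. No test was made of these shares against each other. The split into higher and lower followed the scale between arrays. With each array centred on the feature median, the split was 51 higher and 20 lower with vehicle and 53 and 14 with odor. The median difference of all features was then 0.54 in vehicle and 0.44 in odor pools, against 0.13 and 0.14 as deposited. Of all 19572 features, 13985 and 11192 were called on that scale, against 3302 and 4338 as deposited. Centred on the receptor median, the split was 20 and 25, and 25 and 23. The median difference of all features was then −0.14 and −0.33, and 2144 and 2790 features were called.

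The median difference over the 118 receptors was 0.27 in vehicle and 0.58 in odor pools, beside 0.13 and 0.14 over all tested features. Over the 962 other receptors it was 0.44 and 0.55, and over the 112 other receptors of chromosome 7 it was 0.76 and 0.66. The fitted values of single class I receptors, which include signals below background, ran from −6.73 to 5.20 and from −6.89 to 5.18. With class I receptors below background on every array of a group set at the bound that the background allows, their medians were 0.00 and 0.06. The vehicle median also fell with 1 pool or a filter: it was 0.07 without vehicle replicate 1, beside 0.11 over all features, 0.17 without vehicle replicate 4 and 0.02 over receptors above background on at least 4 arrays. Vehicle and odor pools share no mice and no arrays, so each set of pools gives its own differences. The model over all arrays gave each receptor the same SE in both sets, so the calls compared next are not independent. Leaving out 1 odor pool moved the vehicle count from 43 to between 39 (without odor replicate 2) and 52 (without odor replicate 1). Over all features it moved that count from 3302 to between 3059 and 3867. The same 33 receptors were called in both with the same sign, 19 higher and 14 lower, which is 76.7% of the vehicle calls and 73.3% of the odor calls. None was called with opposite signs. The matching shares over all tested features were not computed, so 76.7% and 73.3% have no such value beside them. Of all 118, 86.4% had the same sign in both, against 80.8% of all tested features. Across receptors, which are not independent replicates, the differences correlated at r = 0.967 (n = 118). Of the remaining receptors 10 were called with vehicle alone, 12 with odor alone and 63 in neither.

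**Figure D2:**
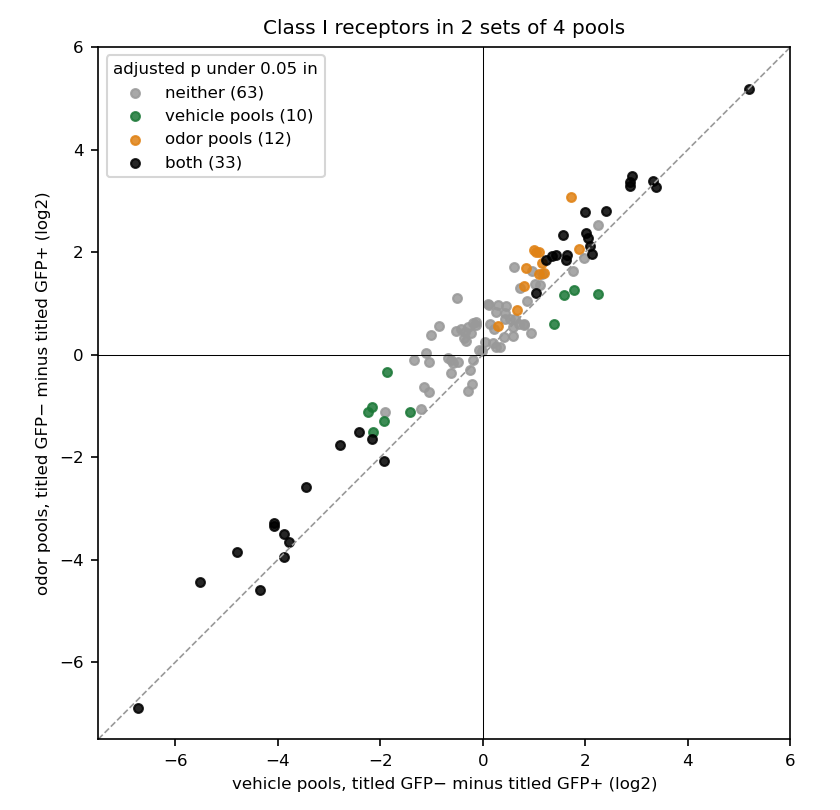
Fraction difference of each class I receptor in the 4 vehicle pools (x axis) and the 4 odor pools (y axis), both titled GFP− minus titled GFP+ in log2 units, with the line of equality dashed. The 33 receptors called in both lie toward both ends of the diagonal. Some of the 63 called in neither lie farther from 0 than some of these, as a call depends on spread as well as distance.

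Olfr613, the only measured receptor of family MOR20, was detected in the titled GFP− fraction alone. Its signals were 8.61, 9.90, 10.0 and 8.86 in vehicle titled GFP− and 4.01, 4.27, 3.78 and 4.55 in vehicle titled GFP+ arrays. With odor they were 8.25, 10.8, 10.2 and 8.28 against 4.15, 3.94, 4.33 and 4.37. All 8 titled GFP− arrays were above background and all 8 titled GFP+ arrays below it, so titled GFP− signals exceeded titled GFP+ signals by at least 4.90-fold with vehicle (adjusted p = 7.0e-07) and at least 4.33-fold with odor (adjusted p = 7.7e-07). An at-least fold sets the brighter group against the background of the dimmer arrays.

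Olfr593, of family MOR24, was above background on every array. It stood at 10.9, 11.3, 11.1 and 11.0 in vehicle titled GFP− arrays and at 7.83, 8.68, 8.03 and 8.29 in vehicle titled GFP+ arrays. With odor it stood at 10.7, 12.0, 11.9 and 11.4 against 7.64, 8.16, 8.43 and 8.35. The fractions did not overlap, and the differences were 2.86 ± 0.27 (SE, adjusted p = 7.2e-07) and 3.36 ± 0.27 (adjusted p = 1.3e-07). Olfr618, of family MOR31 and likewise above background on every array, ranged from 11.4 to 12.5 on titled GFP− and from 7.60 to 9.89 on titled GFP+ arrays, with differences of 2.40 ± 0.40 (adjusted p = 4.0e-04) and 2.80 ± 0.40 (adjusted p = 9.4e-05).

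Olfr550, the single measured receptor of family MOR16, stood at 10.2 to 12.0 on titled GFP− and at 6.23 to 8.88 on titled GFP+ arrays, 5 of which were above background. Its differences were 3.31 ± 0.58 (adjusted p = 5.9e-04) and 3.38 ± 0.58 (adjusted p = 4.9e-04). Olfr689, of family MOR40, ranged from 10.5 to 11.8 against 7.09 to 9.53 and differed by 2.00 ± 0.38 (adjusted p = 0.0011) and 2.78 ± 0.38 (adjusted p = 4.8e-05). These receptors were above background in the titled GFP− fraction of every pool, and the fractions kept apart on all arrays.

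Olfr633, Olfr644 and Olfr651 spread more among the pools. Olfr633 differed by 3.37 ± 0.77 (adjusted p = 0.0054) with vehicle and 3.27 ± 0.77 (adjusted p = 0.0062) with odor, and Olfr644 by 2.87 ± 0.67 (adjusted p = 0.0059) and 3.29 ± 0.67 (adjusted p = 0.0021). Titled GFP+ signals reached down to 4.54 for Olfr633 and 4.94 for Olfr644, both on the odor array of replicate 1. Olfr651 was above background on 1 of 4 vehicle and none of the odor titled GFP+ arrays. It differed by 2.91 ± 0.68 with vehicle (adjusted p = 0.0066, and 2.57 with adjusted p = 0.0547 without vehicle replicate 2) and was at least 4.75-fold higher with odor (adjusted p = 0.0016). For each of these 8 receptors the titled GFP− signal was higher in every pool, which is partly set by their choice from the same differences. Without moderation of the variances Olfr633 passed in neither treatment (adjusted p = 0.0647 and 0.0685), and Olfr644 and Olfr651 did not pass with odor (adjusted p = 0.0672 and 0.0767).

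At the other end stood Olfr677, a receptor of family MOR32. Its signals were 11.7, 12.2, 11.5 and 12.9 in vehicle titled GFP+ and 5.07, 4.57, 5.28 and 6.55 in vehicle titled GFP− arrays. With odor they were 10.5, 12.2, 11.8 and 12.7 against 4.67, 4.75, 4.22 and 5.93. The titled GFP− signals lay below background on all 8 arrays, so Olfr677 was brighter in the titled GFP+ fraction by at least 30.3-fold with vehicle (adjusted p = 5.8e-08) and at least 23.3-fold with odor (adjusted p = 4.9e-08). With Olfr677 above background on every titled GFP+ array and on no titled GFP− array, the fractions were far apart in all 8 pools.

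Olfr69 and Olfr68, neighbours beside the beta-globin genes and members of family MOR22, were also lower in the titled GFP− fraction. Olfr69 stood at 12.9, 12.9, 12.6 and 14.3 in vehicle titled GFP+ and at 8.62, 7.33, 6.71 and 7.91 in vehicle titled GFP− arrays. With odor it stood at 11.7, 13.3, 12.8 and 14.03 against 9.03, 8.39, 7.81 and 8.80. The differences were −5.51 ± 0.50 (adjusted p = 5.8e-07) and −4.43 ± 0.50 (adjusted p = 6.3e-06). Olfr68 ranged from 11.2 to 13.5 on titled GFP+ and from 5.68 to 9.03 on titled GFP− arrays, and differed by −4.79 ± 0.63 (adjusted p = 3.2e-05) and −3.85 ± 0.63 (adjusted p = 3.0e-04). Both receptors were highest on the titled GFP+ arrays of replicate 4 in each treatment.

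Olfr629, of family MOR26, was below background on all titled GFP− arrays, at 3.12 to 5.22, against 7.54 to 9.80 on titled GFP+ arrays, a difference of at least 2.86-fold with vehicle (adjusted p = 3.5e-06) and 2.50-fold with odor (adjusted p = 2.0e-06). Olfr686 of MOR35 was also higher on titled GFP+ arrays, by at least 5.02-fold (adjusted p = 5.4e-07) and 4.87-fold (adjusted p = 4.6e-07). For Olfr600 of MOR39 the bounds were 3.41-fold (adjusted p = 3.2e-05) and 2.52-fold (adjusted p = 4.7e-05). Olfr600 was above background on 3 of the 4 odor titled GFP+ arrays.

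Olfr632, of MOR2, lay between 5.33 and 5.58 on the titled GFP− arrays, all below background, while its titled GFP+ signals spread from 6.07 to 11.2. The bounds were 4.25-fold (adjusted p = 0.0020) and 3.32-fold (adjusted p = 0.0044), and the titled GFP+ signal was lowest in both treatments on the array of replicate 1. Olfr611 of MOR15 was brighter there by at least 7.78-fold with vehicle (adjusted p = 2.4e-04), and with odor differed by −3.35 ± 0.65 (adjusted p = 0.0014). All 8 of these receptors, likewise chosen from the same differences, were lower in the titled GFP− fraction of every pool. Without moderation Olfr611 and Olfr632 did not pass with odor (adjusted p = 0.0657 and 0.0828).

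Beyond the 8 highest and 8 lowest, 17 receptors were called in both treatments. Of these 11 were higher in the titled GFP− fraction, with fitted differences, dim signals included, of 1.03 to 2.13 with vehicle and 1.21 to 2.38 with odor, and 1 of the 11 was above background on every array. The other 6 were lower, at −4.07 to −1.93 and −3.29 to −1.52, and 4 of the 6 were above background on every array. The spread among the 4 arrays of a group had a median SD over the 118 receptors of 0.67 in vehicle titled GFP−, 0.68 in vehicle titled GFP+, 0.60 in odor titled GFP− and 0.94 in odor titled GFP+ arrays.

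**Figure D3:**
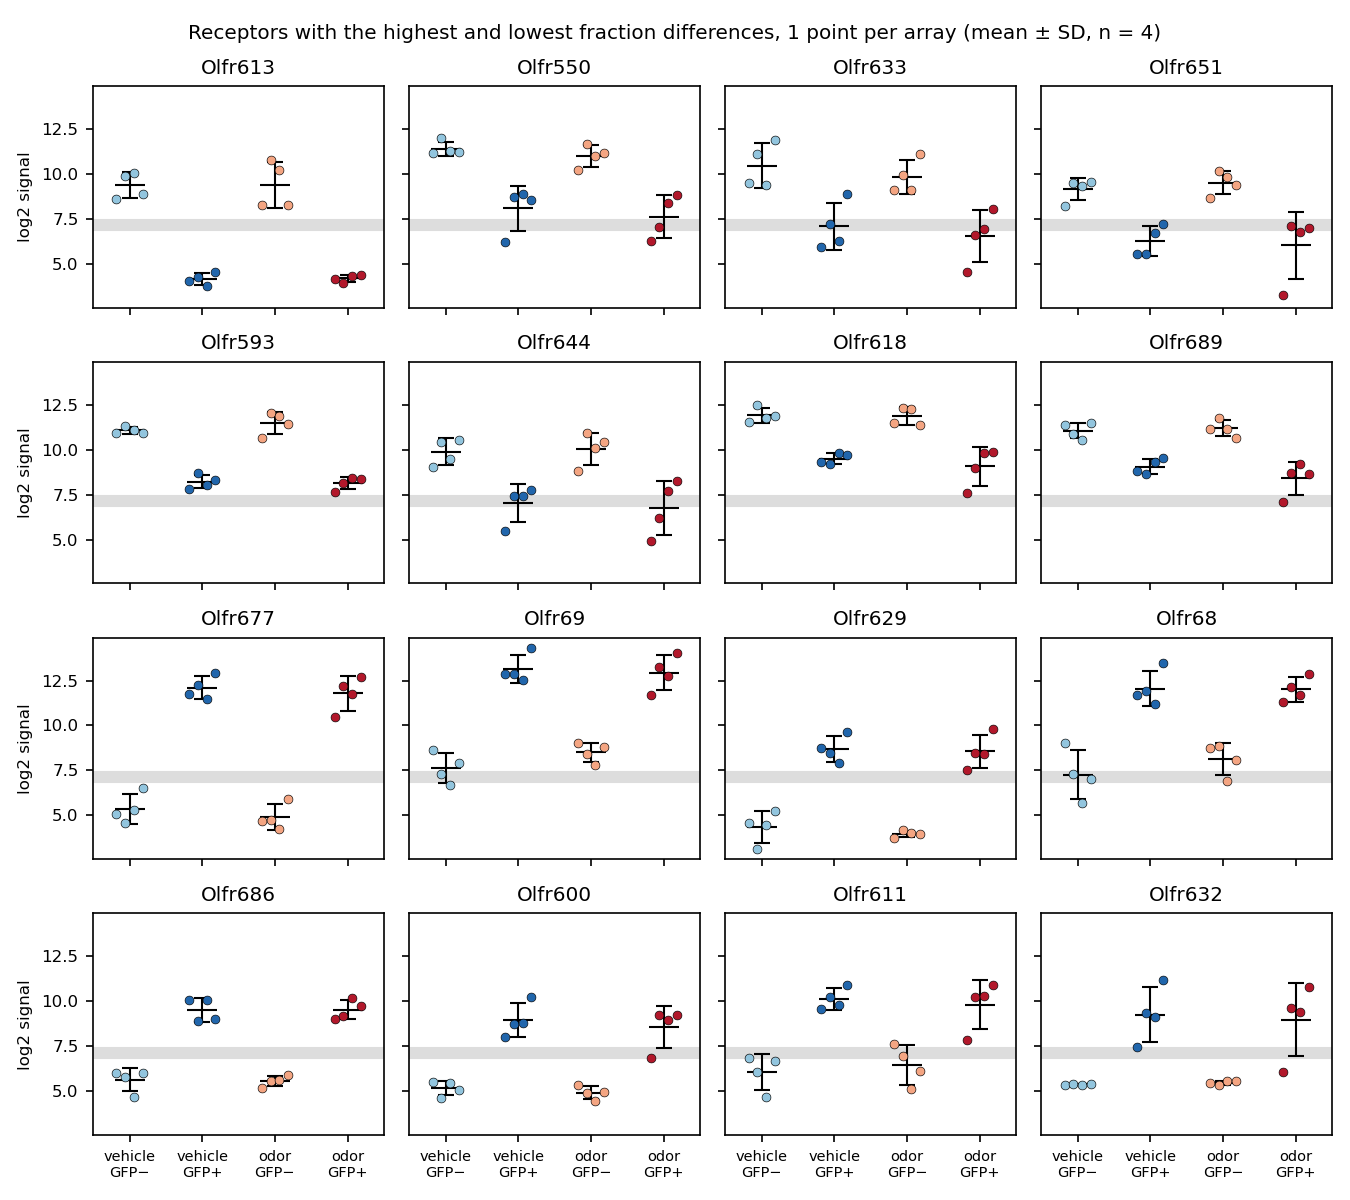
Log2 signals of the 8 receptors with the highest (Olfr613 to Olfr689) and the 8 with the lowest (Olfr677 to Olfr632) fitted fraction differences among those called in both treatments, 1 point per array and mean ± SD of 4 arrays per group. The grey band is the range of array backgrounds, 6.87 to 7.41, and the titled GFP− and titled GFP+ points of a treatment separate in opposite ways in the 2 sets of receptors.

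The sequence before the start of the gene is shown for receptors at both ends of this range whose gene model begins upstream of the coding exon. RefSeq tables of assembly GRCm38.p6 held such a window, the 250 bases before the gene's start, for 102 of the 118 receptors. In 75 of the 102 the gene model begins at a start codon, so those windows may not reach the promoter. Capitals mark matches, on either strand, to TAATTA and TAATTG, core sites of homeodomain proteins such as Lhx2 and Emx2, and to CCCNNGGG, the core of sites of the Ebf factors. Both kinds of site are known from olfactory receptor promoters. Olfr613 (chr7:103550118-103550367, plus strand) and Olfr550 (chr7:102578219-102578468, plus strand) were higher in the titled GFP− fraction. Olfr629 (chr7:103741323-103741572, minus strand) and Olfr69 (chr7:103771595-103771844, minus strand) were lower.
Olfr613: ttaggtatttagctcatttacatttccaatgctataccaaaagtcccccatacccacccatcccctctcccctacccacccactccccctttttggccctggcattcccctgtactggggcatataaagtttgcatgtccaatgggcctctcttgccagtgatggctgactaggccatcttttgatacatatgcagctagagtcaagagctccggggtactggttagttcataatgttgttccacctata
Olfr550: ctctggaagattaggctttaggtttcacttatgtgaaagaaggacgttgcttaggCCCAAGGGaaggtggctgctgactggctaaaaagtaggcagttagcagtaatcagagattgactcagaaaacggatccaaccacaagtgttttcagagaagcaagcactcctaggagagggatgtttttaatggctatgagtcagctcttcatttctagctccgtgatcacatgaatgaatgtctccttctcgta
Olfr629: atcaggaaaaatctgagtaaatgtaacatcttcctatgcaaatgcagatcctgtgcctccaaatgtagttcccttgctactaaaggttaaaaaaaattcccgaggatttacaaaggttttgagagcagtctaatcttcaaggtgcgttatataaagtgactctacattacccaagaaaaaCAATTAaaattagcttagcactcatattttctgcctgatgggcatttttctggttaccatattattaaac
Olfr69: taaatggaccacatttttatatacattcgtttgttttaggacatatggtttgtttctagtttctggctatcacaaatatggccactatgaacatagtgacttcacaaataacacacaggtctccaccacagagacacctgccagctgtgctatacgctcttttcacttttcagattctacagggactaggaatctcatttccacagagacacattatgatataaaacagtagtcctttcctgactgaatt
The windows of Olfr613 and Olfr69 hold no match, that of Olfr550 holds CCCAAGGG and that of Olfr629 holds CAATTA, the reverse complement of TAATTG. A homeodomain core, of either form, was present in 33.3% of the 102 class I windows, in 37.2% of 819 windows of the other receptors and in 11.5% of 27025 windows of all genes. CCCNNGGG was present in 2.94%, 2.56% and 11.7%. Over windows whose gene model does not begin at a start codon, 27, 221 and 25200 in number, a homeodomain core was present in 25.9%, 39.4% and 10.6% and CCCNNGGG in 7.41%, 6.79% and 12.1%. A match describes the letters and is no evidence of a bound factor.

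By MOR family, calls in MOR31 were all toward the titled GFP− fraction and calls in MOR32 mostly toward the titled GFP+ fraction. MOR31 and MOR32 hold the most measured receptors. In MOR40, the next largest with 8, 2 were higher and 1 lower in each treatment. Of the 11 measured MOR31 receptors 4 were higher and none lower with vehicle, and 5 were higher and none lower with odor, with median differences of 1.16 and 1.89. Uncalled receptors included, 9 of the 11 had positive differences with vehicle and 10 with odor. Olfr617, beside Olfr618 in the array, ranged from 9.47 to 11.0 on titled GFP− and from 6.86 to 9.72 on titled GFP+ arrays. It differed by 2.00 ± 0.45 with odor (adjusted p = 0.0045) and by 1.05 ± 0.45 with vehicle (adjusted p = 0.128, or 0.0229 with pools blocked and 0.0225 without odor replicate 1). Of the 10 MOR32 receptors 5 were lower and none higher with vehicle, while 3 were lower and 1 higher with odor (medians −1.39 and −0.61). Besides Olfr677 these included Olfr672, which stood at 12.0 to 13.9 on titled GFP+ and at 9.47 to 12.2 on titled GFP− arrays and differed by −3.45 ± 0.54 (adjusted p = 2.0e-04) and −2.59 ± 0.54 (adjusted p = 0.0026). Olfr617 and Olfr672, like Olfr566, Olfr576 and Olfr622 below, were chosen for mention after their values were seen. Without moderation Olfr617, Olfr672, Olfr566 and Olfr576 did not pass with odor, nor Olfr622 with vehicle (adjusted p from 0.0602 to 0.0900).

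All 7 MOR14 receptors had positive differences in both treatments, and 2 were called with vehicle and 4 with odor, but 5 of the 7 were above background on no array. Olfr566, above background on every array, differed by 2.02 ± 0.48 (adjusted p = 0.0069, or 0.0624 without vehicle replicate 2) and 2.38 ± 0.48 (adjusted p = 0.0020). In MOR8, Olfr576 was higher on titled GFP− arrays, with means of 6.72 and 6.77 against 4.63 and 4.65 (adjusted p = 0.0036 and 0.0032). All titled GFP+ arrays were below background and the titled GFP− arrays mostly so, hence no fold is given. Olfr586, of the same family, was lower. In MOR26, Olfr629 and Olfr622 were lower with vehicle (for Olfr622, −2.15 ± 0.44, adjusted p = 0.0023) and the remaining receptor was higher. With odor Olfr622 differed by −1.03 ± 0.44 (adjusted p = 0.107, or 0.0170 with pools blocked). None of the 3 MOR42 receptors was called. Over the 222 pairs of receptors of 1 family, the median gap between their differences was 1.35 with vehicle and 1.29 with odor, beside 1.61 and 1.48 over the other 6681 pairs. Those include all pairs with the 3 receptors that have no MOR name and the 2 with names of several families.

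**Figure D4:**
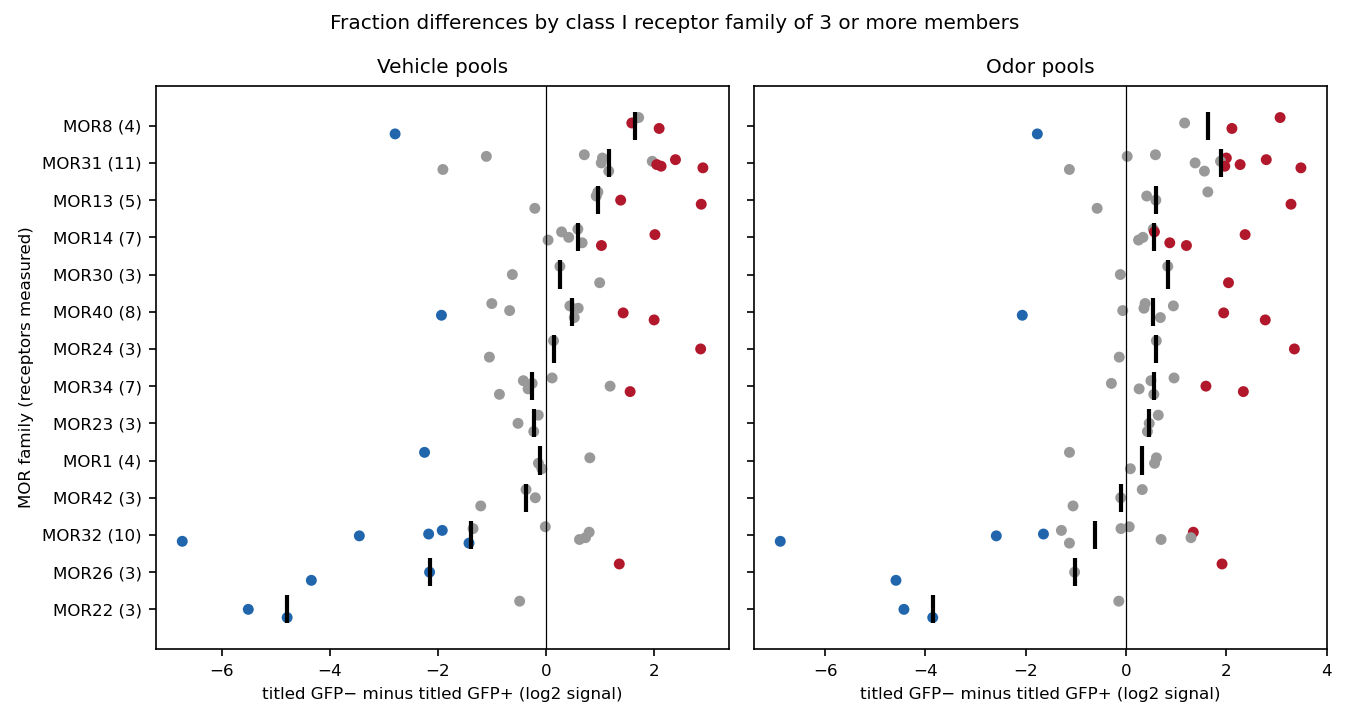
Fraction differences (titled GFP− minus titled GFP+, log2 signal) of class I receptors in MOR families of 3 or more measured members, in vehicle and odor pools. Each point is a receptor, coloured red where higher and blue where lower at an adjusted p under 0.05 and grey otherwise, and black bars are family medians, from −4.79 in MOR22 to 1.65 in MOR8 with vehicle.

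Receptors called in either direction lay along the whole array. Among the 65 receptors before the beta-globin genes, in the order of the RefSeq table, 12 were higher and 9 lower with vehicle and 17 and 4 with odor. Among the 47 after them these counts were 11 and 9, and 14 and 8. Neighbours differed by a median of 1.49 with vehicle and 1.31 with odor (117 pairs), beside 1.60 and 1.47 over all 6903 pairs of the array, and their differences correlated at r = 0.117 and 0.080, over pairs that share receptors. Olfr632, lower, and Olfr633, higher, lie next to each other.

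The 6 receptors beside the beta-globin genes are named after that position. Olfr69 and Olfr68, described above, were lower, and the other 4 were not called in either treatment on the deposited scale. Olfr67 stood at 6.79 to 11.9 over the 16 arrays and differed by 1.02 ± 0.88 (adjusted p = 0.454) and 1.38 ± 0.88 (adjusted p = 0.277), where blocking the pools gave adjusted p = 0.0146 and 0.0027. It was higher in the titled GFP− fraction of all 8 pools. Olfr65, above background on every array at 9.03 to 11.7, differed by −0.08 ± 0.53 (95% interval −1.19 to 1.04) and 0.09 ± 0.53 (−1.03 to 1.21). Olfr64 differed by −0.14 ± 0.61 and 0.57 ± 0.61, with 5 of 16 arrays above background (adjusted p = 0.898 with vehicle). Olfr66 was above background on 1 of 16 arrays, so no difference is given (adjusted p = 0.241 with vehicle, or 0.0257 with arrays centred on the feature median, and 0.361 with odor).

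**Figure D5:**
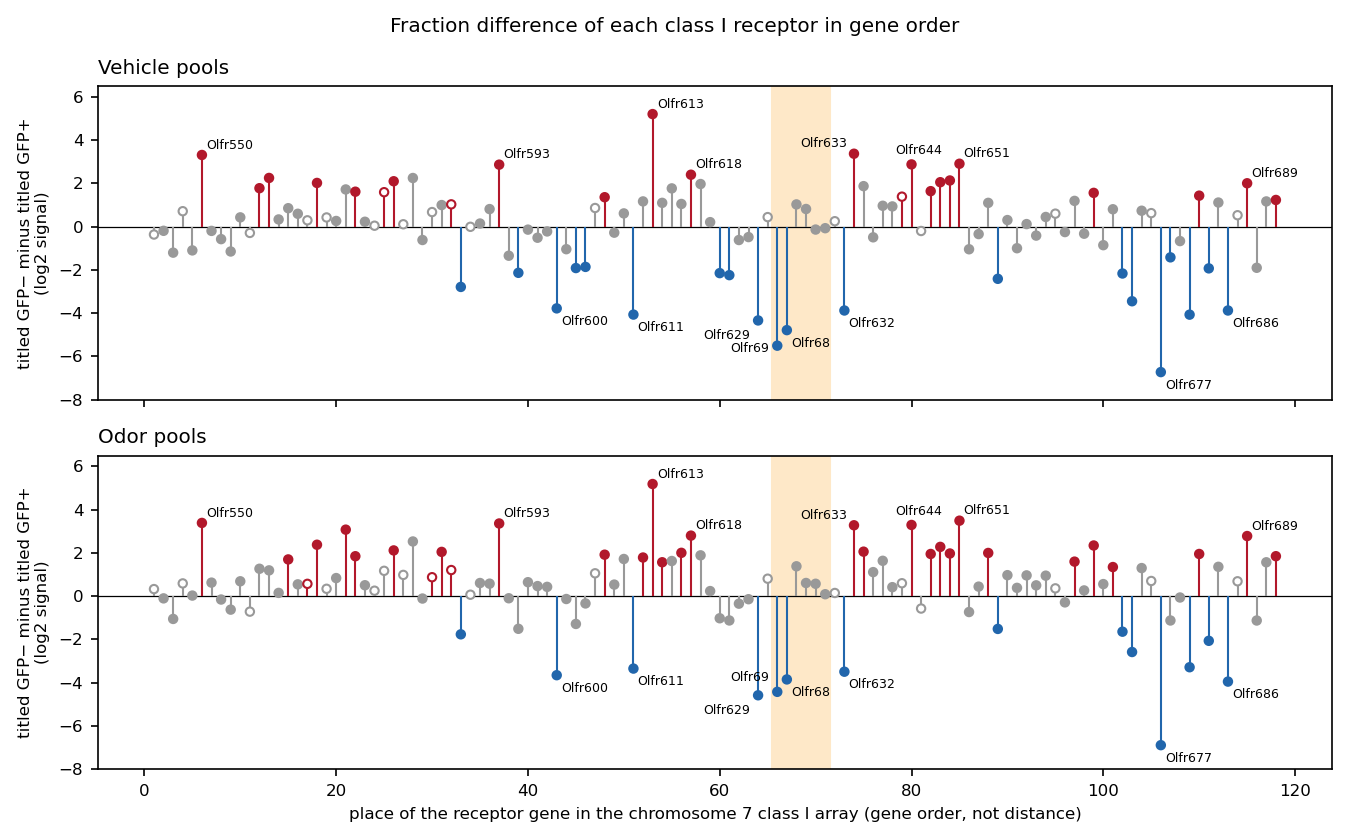
Fraction difference (titled GFP− minus titled GFP+, log2 signal) of each of the 118 receptors in gene order, for vehicle pools (top) and odor pools (bottom). Red and blue are receptors called higher and lower, grey those not called, open circles the 19 receptors above background on no array, and the shaded band the 6 receptors beside the beta-globin genes, where Olfr69 and Olfr68 stand among the lowest.

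Genes inside the array that are no receptors were measured by 20 features. With vehicle 5 (25%) were lower in the titled GFP− fraction and none higher, beside 9.82% and 7.05% of all tested features. With odor 5 (25%) were lower and 1 (5%) higher, beside 9.98% and 12.2% of all. The lower ones were Trim genes, a family known for antiviral members that leukocytes also transcribe. Among them Trim12a, chosen after its values were seen, was brighter in the titled GFP+ fraction by at least 2.12-fold with vehicle (adjusted p = 0.0048, or 0.0539 without vehicle replicate 1) and 2.28-fold with odor (adjusted p = 0.0013). They moved with the leukocyte markers given above, whose part was not tested. Of these 20 features, 17 with vehicle and 18 with odor were below background in both fractions.

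Receptors with known ligands in the mouse were described whatever their values. Olfr544 and Olfr545, both of family MOR42 and receptors for dicarboxylic acids, differed by −0.20 ± 0.48 and −1.21 ± 0.52 with vehicle (adjusted p = 0.811 and 0.124) and by −0.10 ± 0.48 and −1.06 ± 0.52 with odor (adjusted p = 0.902 and 0.155). Olfr545 passed with arrays centred on the receptor median, at −1.47 (adjusted p = 0.0126) and −1.52 (adjusted p = 0.0089). Olfr543, the other MOR42 receptor, was above background on no array. Olfr558, a receptor for short-chain acids that is also transcribed outside the nose, was above background on 3 of 16 arrays, none of them vehicle titled GFP−. It was not called with vehicle (adjusted p = 0.567) and differed by 0.15 ± 0.36 with odor (adjusted p = 0.805). Olfr691, of MOR31 and known to respond to carboxylic acids, differed by 1.16 ± 0.65 (adjusted p = 0.243) and 1.56 ± 0.65 (adjusted p = 0.0971, or 0.0237 with pools blocked). It passed in both treatments with arrays centred on the feature median (adjusted p = 0.0413 and 0.0240).

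Whether the odor mixture changed the receptors was asked within each fraction and as the difference between the fraction differences. No class I receptor and no feature of the array passed in any of these 3 comparisons with limma (0% of tested features called). At an unadjusted p under 0.05, 2 receptors and 3.78% of all features differed in the interaction, 3 receptors and 4.11% of features between odor and vehicle in the titled GFP− fraction, and 0 receptors and 10.3% of features in the titled GFP+ fraction. The test without moderation also called 0 receptors in each. These comparisons reuse the arrays of the fraction comparisons above and of one another.

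Olfr586, of MOR8, had the smallest p among the receptors both in the titled GFP− fraction and in the interaction. In the titled GFP− fraction it stood at 10.3, 9.37, 10.0 and 9.15 with odor and at 9.33, 8.56, 8.56 and 8.18 with vehicle. In the titled GFP+ fraction it stood at 10.7, 11.8, 12.0 and 11.4 against 11.1, 11.1, 11.8 and 11.8. The titled GFP− groups overlapped in 1 array of each, and the odor difference there was 1.04 (95% interval 0.37 to 1.72, unadjusted p = 0.0047, adjusted p = 0.9993). The fraction difference was −2.79 ± 0.32 with vehicle (adjusted p = 7.3e-06) and −1.77 ± 0.32 with odor (adjusted p = 7.7e-04), and their difference was 1.02 (0.07 to 1.98, unadjusted p = 0.0370, adjusted p = 0.9997).

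Other receptors with the smallest p did not pass either. In the interaction, Olfr584 of MOR30 had a value of 1.05 (0.03 to 2.07) and Olfr638 of MOR5 of 1.61 (−0.11 to 3.33), both with an adjusted p of 0.9997. Between odor and vehicle in the titled GFP− fraction, Olfr609 of MOR9 differed by 0.88 (0.24 to 1.52) and Olfr655 of MOR38 by 0.98 (0.26 to 1.70), both with an adjusted p of 0.9993. Olfr655 was lower on titled GFP− than on titled GFP+ arrays, at −2.42 ± 0.34 (adjusted p = 6.3e-05) with vehicle and −1.52 ± 0.34 (adjusted p = 0.0041) with odor. In the titled GFP+ fraction, Olfr612 of MOR15 differed by −0.79 (−1.62 to 0.03, adjusted p = 0.498) and Olfr678 of MOR32 by −0.76 (−1.65 to 0.13, adjusted p = 0.560). Olfr555 of MOR10 (adjusted p = 0.522) was below background on all 16 arrays, so its difference is not given.

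Small odor differences of most receptors ran the same way within a fraction. In the titled GFP+ fraction 21 of 118 (17.8%) were positive, beside 45.6% of all features and 24.0% of the 962 other receptors. The medians were −0.26, −0.03 and −0.22. In the titled GFP− fraction 76 (64.4%) were positive, beside 49.2% and 35.1%, with medians of 0.10, 0.00 and −0.10. The interaction was above 0 for 93 receptors (78.8%), beside 54.9% of all features and 62.0% of the other receptors, with medians of 0.41, 0.03 and 0.12. The medians of the class I receptors moved with single pools. The titled GFP+ median was 0.12 without odor replicate 1, −0.01 without vehicle replicate 4, −0.52 without vehicle replicate 1 and −0.53 without odor replicate 4. The titled GFP− median was 0.29 without vehicle replicate 4, 0.17 without odor replicate 1, 0.02 without vehicle replicate 3, 0.03 without odor replicate 2 and 0.05 without odor replicate 4. For the interaction it was 0.14 without odor replicate 1 and 0.67 without vehicle replicate 1. With arrays centred on the receptor median they were 0.01, 0.16 and 0.21.

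Genes that place, choose and serve receptors were also compared between the fractions. None of the 3 dorsal zone markers was called, with Nqo1 at 0.03 ± 0.35 (adjusted p = 0.968) and 0.47 ± 0.35 (adjusted p = 0.366) and Acsm4 at −0.06 ± 0.32 (adjusted p = 0.915) and 0.29 ± 0.32 (adjusted p = 0.542). Robo2 was at −0.28 ± 0.20 (adjusted p = 0.353) and −0.45 ± 0.20 (adjusted p = 0.112). Of 5 ventral zone markers none was called with vehicle and 1 was lower with odor. Of 8 regulators of receptor choice only Lbr, a nuclear envelope protein whose absence from olfactory neurons lets receptor genes gather into heterochromatic foci, was called. It was lower, at −1.67 ± 0.32 (adjusted p = 0.0015) and −1.77 ± 0.32 (adjusted p = 8.8e-04), and the lists of immature neuron and leukocyte markers moved with it as given above, whose part was not tested. Of 3 receptor trafficking genes none was called with vehicle and 1 was higher with odor. Of 12 measured genes of odorant transduction 2 were higher and 1 lower with vehicle and 3 higher and 1 lower with odor. The lower one, the same gene in both treatments, was above background on no array. Pde1c, a phosphodiesterase that ends the cyclic AMP signal, led the higher ones at 0.57 ± 0.10 (adjusted p = 7.2e-04) and 0.71 ± 0.10 (adjusted p = 8.9e-05). Pde1c did not pass with arrays centred on the receptor median (0.30, adjusted p = 0.704, and 0.24, adjusted p = 0.533). Of 7 activity-dependent genes of these neurons, S100a5 among them, 6 were higher in both treatments.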

How the data were processed

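The authors deposited values made with Affymetrix Expression Console, per the submitters' processing notes, and their range, 1.77 to 19.3, is that of log2 signals. Background correction, normalization and summarization are not given in the sources used here, and neither is a genome build. Of 28846 rows per array, 19572 carried 1 gene symbol and were tested. Samples were grouped by title, 4 arrays in each of 4 groups, 1 pool of 3 mice per replicate. A limma cell-means model over the 16 arrays (limma 3.58.1, R 4.3.3) gave two-sided moderated tests for 5 comparisons, adjusted by Benjamini-Hochberg over all 19572 features at 0.05. It was tested on simulated data. SE values come from that model. Where all 4 arrays of a group were below background, a named receptor got only an at-least fold, and none where both groups were below background or the bound was under 1. Counts, medians, ranges, ranks and plots over receptors use the fitted differences. The number of arrays limits the precision.

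The receptors, gene lists and rule for named genes were chosen with earlier results of these data known. By that rule the text names the 8 highest and the 8 lowest of the receptors called in both treatments by their mean difference, the 3 with the smallest p where fewer than 3 passed, 12 receptors with known ligands or beside the beta-globin genes (11 were measured), and S100a5. Nqo1, Acsm4, Lbr and Pde1c were added after their values were seen, and Robo2 beside Nqo1 and Acsm4, without alternative values. Pairs of receptors with near-identical proteins were to be named too, but protein sequences were not used here, and receptors that share probes with a close copy may be misread. Both fractions of a pool come from the same mice, per the labels, and their deviations from the group means correlated at 0.096 to 0.337 over the 8 pools. Odor and vehicle arrays of 1 replicate number correlated at 0.147 to 0.547. The titles give these pools a number but state no pairing, so a block by number was run as an alternative only. Gene order, MOR names and the windows before gene starts come from RefSeq GRCm38.p6, whose coordinates are given for those windows only. Alternatives were other scales between arrays, a filter on dim features, other variance models, blocks and leaving out each pool.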

Additional observations from a re-analysis of the deposited data

Results flagged for a closer look

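Single arrays stood apart from the other 3 of their group in 19 of 176 groups of 4 values examined, by Dixon's criterion, which chance meets about once in 20 groups. On the odor titled GFP+ array of replicate 1, Olfr651 (3.26), Olfr600 (6.86), Olfr617 (6.86), Olfr566 (8.89) and the dorsal marker Nqo1 (14.3) were low. On the vehicle titled GFP+ array of replicate 1, Olfr550 (6.23), Olfr644 (5.45) and Olfr612 (7.29) were low. These are the arrays with the lowest medians of class I receptors, 6.47 and 7.29. On the other fractions of those pools, Olfr651 (8.23) and Olfr609 (10.2) were low on the vehicle titled GFP− array of replicate 1, and on the odor titled GFP− array of replicate 1 S100a5 was high (17.1) and Acsm4 low (13.4). The other values that stood apart were scattered. Olfr550 was high on the vehicle titled GFP− array of replicate 2 (12.0), Olfr686 low (4.68) and Olfr655 high (11.0) on that of replicate 3, and Olfr65 high on that of replicate 4 (11.0). Olfr566 was high on the vehicle titled GFP+ array of replicate 4 (11.9), Olfr66 high on the odor titled GFP+ array of replicate 4 (5.74), and Olfr655 low on the odor titled GFP− array of replicate 4 (10.4).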

How the results depend on the processing

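The count of 43 class I receptors with vehicle moved to 71 when each array was centred on its feature median and to 25 with the test without moderation, and the count of 45 with odor to 20 with that test and to 68 with the pool of mice as a replicate block (59 with vehicle). Over all 19572 features the vehicle count moved from 3302 to 13985 with arrays centred on the feature median. It was 2419 without moderation and 3708 with the pool block. With odor the count over all features was 2053 and 4948, against 4338. Under the other settings run, the receptor counts were 40 to 48 with vehicle and 41 to 67 with odor. Leaving out 1 pool gave 29 (without vehicle replicate 2) to 52 with vehicle and 38 to 48 with odor. Over all features it gave 2138 to 3867 with vehicle and 2689 to 4255 with odor. The 0 calls of the interaction and of odor against vehicle stayed 0 under every alternative, blocks and left-out pools included. The median difference moved from 0.27 to 0.68 with vehicle and from 0.58 to 0.88 with odor when centred on the tested features, to 0.11 with odor when centred on receptors, and to 0.06 with dim receptors at their bound. With vehicle it was 0.07 to 0.41 with 1 pool left out. That of odor against vehicle in titled GFP+ cells turned from −0.26 to 0.12 without odor replicate 1. A bounded median of the interaction was not computed. Of 1212 alternative values of named genes, 1181 kept their side of the threshold, 13 passed where the reported value did not and 18 lost their call. In all, 0 called values changed sign, while 26 values that were not called did. Centring on the receptor median left S100a5 with vehicle at 0.73 (adjusted p = 0.110). Without moderation 12 calls were lost, those given beside the results and that of Trim12a with odor (adjusted p = 0.0713). The causes were not tested. The replicate block changed no call of a named gene other than those given beside the results. Above another background, the 95th percentile of negative controls, 74 receptors were detected on at least 1 array, against 99 here and 107 above the median of those controls. Signals near background limit the 19 receptors that no array detected.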
